A study of Arabidopsis thaliana with 12 samples.

Results

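The 117 probe sets described here are those that read lower in siz1-3 than in Col-0 by a similar factor with and without dehydration, out of 22746 probe sets measured on ATH1 GeneChip arrays of Arabidopsis thaliana. Levels were taken as log2(signal + 16) and averaged over the 3 arrays of a group. A probe set was a member where the siz1-3 minus Col-0 difference was at most -1 under control conditions, at most -1 after dehydration, and the 2 differences lay less than 0.75 apart. Of 124 probe sets that met these conditions, 7 were left out by name, namely 4 encoded in the chloroplast genome and those of COR15B, THI2.1 and THI2.2, and 117 remained. SIZ1, COR15A and EXLA1, also to be left out, did not meet the conditions. Of the members, 49 pair with exactly 1 gene in the platform annotation used here, 2 with several genes, and 66 are not listed in it, so that the exclusion by name could not be applied to the last of these and they are given without gene names. The set was chosen on the genotype differences themselves. These differences are therefore given as a description with no test, and the test below is on the response to dehydration averaged over both genotypes, a contrast that the choice of members did not use.

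SUMO is a small protein that cells attach to other proteins, and the SUMO E3 ligase made from SIZ1 promotes that attachment in plants. Many of its known substrates are transcription factors and other nuclear proteins, and siz1 mutants are known for a dwarf stature, raised salicylic acid and altered responses to drought, cold and phosphate shortage. A transcript lowered by a like factor in both conditions has, by that arithmetic, a like log-scale response to dehydration in both genotypes. The named members encode proteins of the cell wall and surface, transporters and vacuolar proteins, defence- and hormone-linked proteins, transcription factors, membrane and cytoskeleton proteins, a chloroplast antenna protein and several hydrolases.

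The 12 arrays fall into 4 groups of 3: siz1-3 after 2 h of dehydration (drought in the labels), siz1-3 under control conditions, Col-0 after 2 h of dehydration and Col-0 under control conditions. Col-0 is the wild type ecotype Columbia, and siz1-3 is an insertion allele of SIZ1, represented by this 1 allele with no complemented line among the samples used here. Plant age is labelled 3 weeks for 11 arrays and 21 days for 1. The labels name no tissue. Nor do they say that replicates were grown apart, and p-values then reflect only how these samples spread, technical spread included. The median signal of an array was 65.1 to 65.6 in dehydrated siz1-3, 86.9 to 87.7 in control siz1-3, 70.9 to 72.0 in dehydrated Col-0 and 84.3 to 86.6 in control Col-0. The brighter of 2 SIZ1 probe sets read 81.5 to 177 in siz1-3 and 286 to 465 in Col-0, without overlap. The dimmer one ran the other way, at 60.3 to 111 in siz1-3 and 2.85 to 34.2 in Col-0, and the sources used here do not say on which side of the insertion either lies. The actin control, whose 3' over 5' signal is a sign of RNA integrity and labelling length, gave ratios of 8.29 to 19.0 in siz1-3 and 8.89 to 20.2 in Col-0, and the GAPDH control gave 1.09 to 1.74 in siz1-3 and 1.08 to 1.39 in Col-0. Among 7 genes expressed mainly in roots, 3 were measured, and their summed signal was 474 to 515 in dehydrated siz1-3, 718 to 1145 in dehydrated Col-0, 649 to 749 in control siz1-3 and 915 to 992 in control Col-0. Nearly all of this came from PYK10, a root beta-glucosidase gene, while EXPA7 of root hairs averaged 4.92 to 9.94 in every group, near the bottom of the scale. For 3 measured genes of stomatal development out of 10 markers of guard cells, trichomes and vessels, the sum was 57.6 to 74.5 in dehydrated siz1-3, 87.1 to 138 in dehydrated Col-0, 135 to 192 in control siz1-3 and 165 to 246 in control Col-0. Most of it came from FMA, with group means of 49.0 to 159, beside 2.74 to 12.8 for MUTE and 12.6 to 43.4 for SPCH. None of these 3 was called different between genotypes by limma. The part of these markers and of these ratios in the results was not tested, and in such whole samples fewer cells of a type and less RNA per cell cannot be told apart.

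Across the 117 members the siz1-3 minus Col-0 difference ran from -2.73 to -1.0 after dehydration, with a median of -1.30, and from -3.05 to -1.01 under control conditions, with a median of -1.30. Over all 22746 probe sets the medians were -0.10 and -0.03. Taken from the log2 levels, as the mean of both conditions, the lowering was at least 4-fold for 8 members, of which 3 are named. The constant added to each signal makes such folds smaller than the ratios of the signals themselves. AT1G12010 and AT5G22460 thus lay outside the 8, with dehydrated means of 1.04 and 23.2 in siz1-3 against 37.6 and 137 in Col-0. On the same log2 levels the lowering was larger after dehydration for 65 members and larger under control conditions for 52. For 116 of the 117, every siz1-3 array lay below every Col-0 array in both conditions, which was so for 10% of all probe sets. The exception was JMT, described below, whose control arrays overlapped. All 117 were also called lower by limma in either condition, against 8.49% of all probe sets under control conditions and 19.1% after dehydration. Since the choice of members fixed these counts, nothing is read from them. At the edge of the limit under control conditions, AT5G01075 lay inside at -1.01 and AT5G01790 outside at -0.99. After dehydration AT5G24580 lay inside at -1.01 and AT2G35880 outside at -0.99. The differences in the conditions were 0.73 apart for AT1G52000 and 0.72 apart for MSRB6, both members, against 0.76 apart for AT4G29700 and 0.79 apart for AT4G11190, which are not. The mirrored rule, with differences of at least 1, was met by 416 probe sets. Quantile normalization gave 115 lowered and 429 raised, and centring each array on its median gave 110 lowered and 439 raised.

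**Figure D1:**
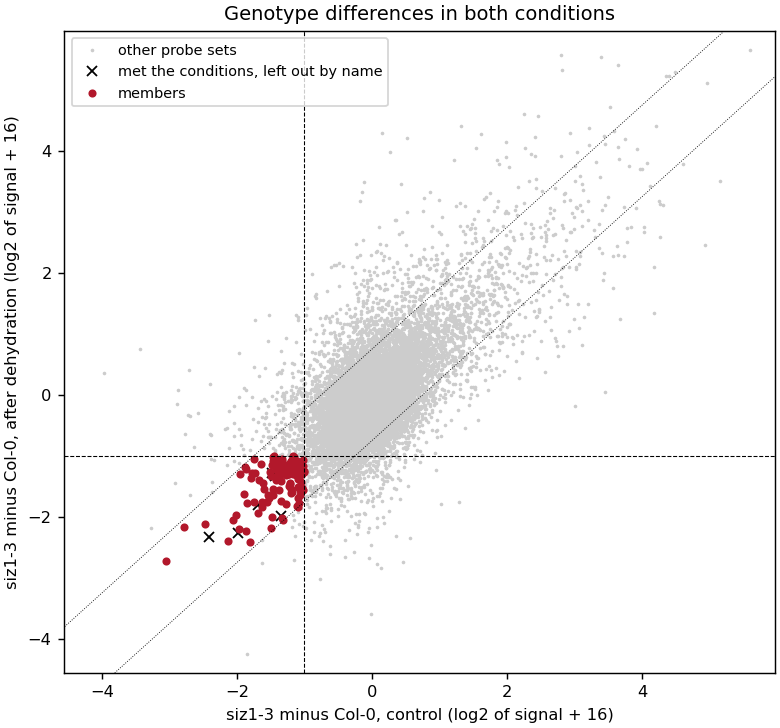
Each point is 1 probe set, with its siz1-3 minus Col-0 difference under control conditions on the x axis and after dehydration on the y axis, both in log2(signal + 16) and as means of 3 arrays a group. The 117 members (red) lie below -1 on both axes (dashed lines) and between the dotted lines that mark differences of 0.75, and crosses are the 7 probe sets left out by name.

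Dehydration itself moved most members, and in opposite directions. With the response averaged over both genotypes and tested by limma with Benjamini-Hochberg adjustment over all probe sets at a threshold of 0.05, 30 of the 117 rose (25.6%, against 17.3% of all probe sets) and 67 fell (57.3%, against 34.3% of all probe sets), and 20 did not pass. Changes of at least 2-fold, taken from the log2 levels, were called upward for 22 members (18.8%, against 6.33% of all probe sets) and downward for 40 (34.2%, against 9.03%). The median response of the members was -0.54 on the log2 scale and that of all probe sets -0.12, and single members ran from -3.35 to 4.04. The split between directions depended on the scaling of the arrays: 42 rose and 57 fell after centring on array medians, when 34.1% and 20.7% of all probe sets did so, and 33 rose and 59 fell after quantile normalization, against 21.9% and 26.6%. These scalings raised the median response of all probe sets by 0.28 and 0.10. Among the 49 named members 13 rose, 26 fell and 10 did not pass. Every dehydrated array lay beyond every control array, on the same side in both genotypes, for 89 of the 117 members (76.1%, against 34.8% of all probe sets) and for 35 of the named ones. The rule can be met only with some signal in Col-0, so it favoured brighter probe sets. Per array, the median log2 level was 6.93 to 9.05 over the members and 6.34 to 6.70 over all probe sets. The shares of all probe sets, here and below, thus include dimmer ones. How far this difference in level accounts for the larger shares among the members was not tested.

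The members differed in where the dehydrated mutant ended relative to the unstressed wild type. Of the 30 that rose, 13 had a higher mean in dehydrated siz1-3 than in control Col-0, with no overlap of arrays for 11 (36.7%, against 84.1% of all probe sets called up). In 10 of the 30 every dehydrated siz1-3 array still lay below every control Col-0 array (33.3%, against 2.37%). Among the 67 that fell, control siz1-3 was above dehydrated Col-0 in mean for 34 and below it for 33, with no overlap of arrays for 24 (35.8%, against 66.3% of all probe sets called down) and 25 (37.3%, against 2.13%). Median levels over the 30 were 8.04 to 8.25 per array in dehydrated siz1-3 and 7.82 to 8.19 in control Col-0 on the log2(signal + 16) scale, ranges that overlapped. For the 67 that fell, medians of 7.91 to 7.99 in control siz1-3 stood next to 7.82 to 7.91 in dehydrated Col-0. These comparisons hold the genotype differences that chose the members, so the shares are a description and nothing is read from them.

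**Figure D2:**
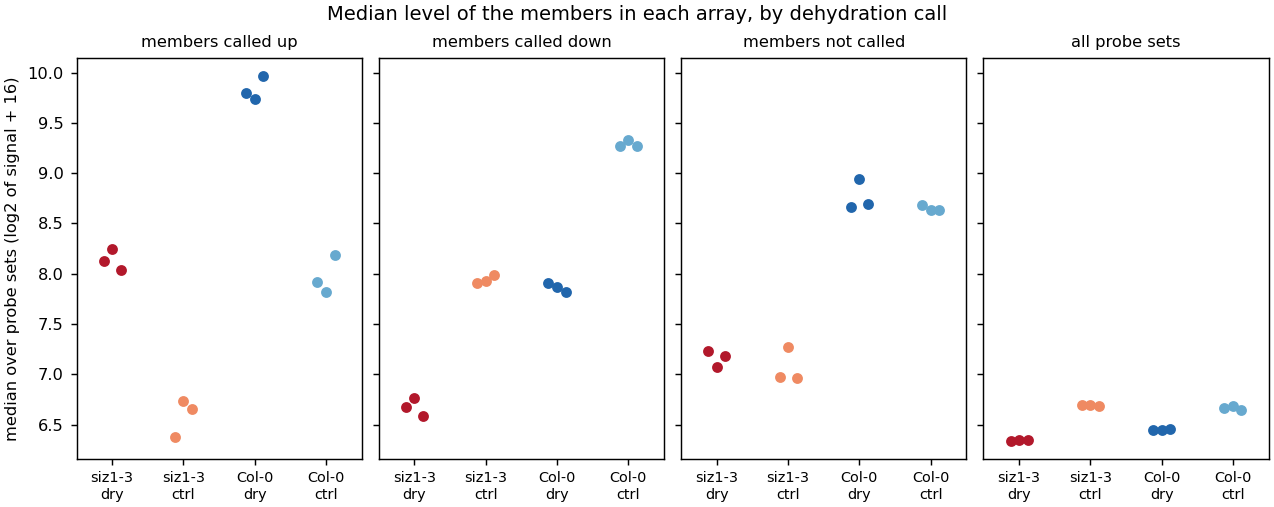
The median level over probe sets, as log2(signal + 16), is shown on the y axis for each of the 12 arrays (1 point an array), by group on the x axis (dry, after 2 h of dehydration; ctrl, control), for the 30 members called up, the 67 called down, the 20 not called, and all probe sets. Within each class of members the siz1-3 points sit below the Col-0 points of the same condition, and in the first panel the dehydrated siz1-3 points overlap the control Col-0 points.

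On the log2(signal + 16) scale the member with the largest lowering was AT3G28220. This gene belongs to the defence- and hormone-linked group and encodes a protein with a TRAF-like (MATH) domain. Its signal was 334, 621 and 584 in dehydrated siz1-3, against 3109, 3239 and 3826 in dehydrated Col-0, and 115, 219 and 244 in control siz1-3, against 1393, 2527 and 1256 in control Col-0. As signal + 16, siz1-3 was lower by 6.64-fold after dehydration and 8.30-fold under control conditions. The transcript rose with dehydration by 1.19 ± 0.22 (log2 scale ± SE, limma adjusted p = 0.000548). Even the highest dehydrated siz1-3 array stayed below the lowest control Col-0 array. AT4G25780, which encodes a secreted protein of the CAP family that also holds the pathogenesis-related PR-1 proteins, was near the bottom of the scale in the mutant. It read 15.7, 15.6 and 4.82 in dehydrated siz1-3 against 110.4, 88.0 and 128 in dehydrated Col-0, and 3.02, 24.8 and 3.31 in control siz1-3 against 158, 168 and 138 in control Col-0. Its difference was -2.17 after dehydration and -2.79 under control conditions. The siz1-3 means of 12.0 and 10.4 lie below the pseudocount of 16, so these differences understate the ratio of signals. The response of AT4G25780 to dehydration did not pass (-0.15 ± 0.19, limma adjusted p = 0.559; called down with a floor of 32, adjusted p = 0.0372).

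JMT encodes jasmonic acid carboxyl methyltransferase, which makes methyl jasmonate, the volatile form of a wound and defence hormone. It read 437, 416 and 438 in dehydrated siz1-3 against 1017, 1130.0 and 881 in dehydrated Col-0, and 8.79, 26.7 and 1.88 in control siz1-3 against 23.5, 59.3 and 67.4 in control Col-0. The control arrays were dim and overlapped between genotypes, whereas all dehydrated arrays of either genotype lay above all control arrays. The response of JMT to dehydration, 4.04 ± 0.22 (limma adjusted p = 7.09e-09), was the largest increase among the 117 members. By genotype it was 4.07 in siz1-3 and 4.02 in Col-0, a likeness that the rule requires. The control siz1-3 mean of 12.5 lies below the pseudocount of 16, so the response in siz1-3 understates the ratio of signals. AT1G52000, which encodes a jacalin-type lectin, stood at 198, 279 and 245 in dehydrated siz1-3, against 961, 917 and 1266 in dehydrated Col-0. Under control conditions AT1G52000 was at 113, 139 and 162 in siz1-3 and 297, 485 and 336 in Col-0. It rose by 1.1 ± 0.14 (limma adjusted p = 2.39e-05), without overlap of dehydrated and control arrays in either genotype.

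AT1G12010 encodes an oxidase of the family that makes ethylene from its precursor. In siz1-3 its signal was close to 0, at 0.804, 1.44 and 0.880 after dehydration and 1.60, 1.72 and 3.96 under control conditions, against 49.6, 36.6 and 26.6 in dehydrated and 63.8, 56.5 and 39.5 in control Col-0. Such readings lie under the pseudocount of 16, so its differences of -1.63 and -1.90 understate the ratio of the signals. AT5G47550, which encodes a cystatin, an inhibitor of cysteine proteases, had 632, 614 and 671 in dehydrated siz1-3 and 1346, 1563 and 1404 in dehydrated Col-0, and 302, 207 and 294 in control siz1-3 and 822, 777 and 588 in control Col-0, a response of 1.1 ± 0.11 (limma adjusted p = 3.4e-06). Of the 6 genes of this group 4 rose with dehydration (AT3G28220, JMT, AT1G52000 and AT5G47550), 0 fell and 2 did not pass, against 17.3% of all probe sets called up and 34.3% called down. These counts were the same after quantile normalization and after each array was centred on its median. For AT1G12010 the response was -0.24 ± 0.12 (limma adjusted p = 0.11; 0.0307 to 0.0433 with a pseudocount of 1, without Col-0 drought replicate 1 or without Col-0 control replicate 3).

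**Figure D3:**
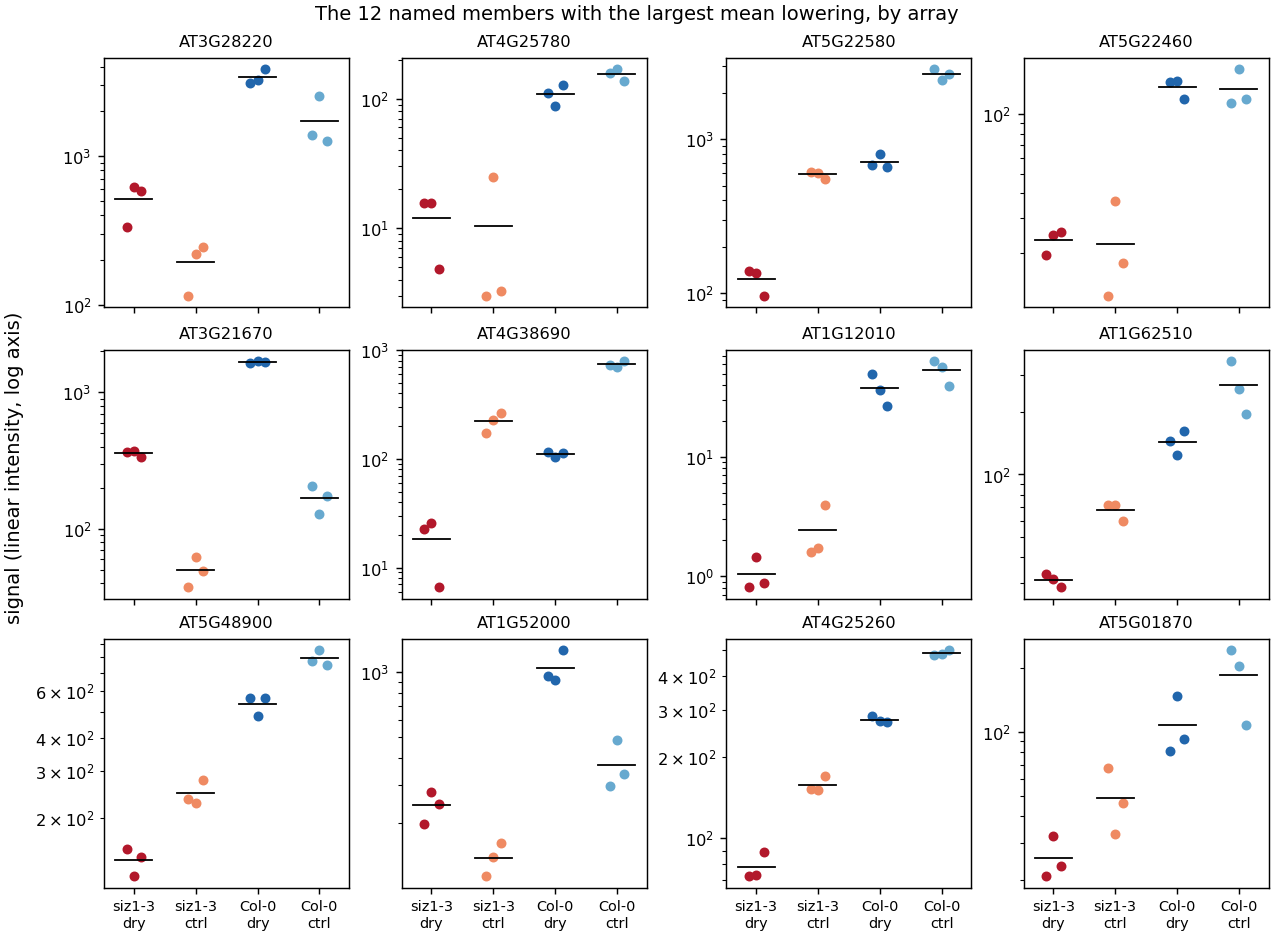
Signals of the 12 named members with the largest mean lowering are plotted on a log axis in each panel, by group (dry, after 2 h of dehydration; ctrl, control), with 1 point an array and a line at the mean of 3. In every panel the siz1-3 points lie below the Col-0 points of the same condition, while dehydrated points lie above control points for AT3G28220, AT3G21670 and AT1G52000 and below them in both genotypes for AT5G22580, AT4G38690, AT1G62510, AT5G48900 and AT4G25260.

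Genes of the cell wall and plant surface made up the largest named group, with 9 members, of which 8 fell with dehydration and 1 rose. Counts by role, here and below, are read beside the 34.3% of all probe sets and 57.3% of the members that fell and the 17.3% and 25.6% that rose. The role groups were formed by hand from genes already known to be members, and no group was tested. Pectin, the gel of the primary wall, is trimmed by lyases and polygalacturonases, and its methylesterases are held back by inhibitor proteins. AT5G48900, which encodes a pectate lyase-like protein, read 152, 121 and 142 in dehydrated siz1-3 against 565, 480.2 and 563 in dehydrated Col-0, and 235, 228 and 277 in control siz1-3 against 776, 853 and 753 in control Col-0. AT3G06770, for a polygalacturonase-like protein, read 45.9, 34.8 and 29.8 in dehydrated siz1-3 against 113, 74.9 and 109.7 in dehydrated Col-0, and 238, 216 and 247 in control siz1-3 against 565, 573 and 548 in control Col-0. Both fell with dehydration, with responses of -0.66 ± 0.09 and -2.30 ± 0.11 (log2 scale, limma adjusted p = 3.54e-05 and 2.18e-09). For AT3G06770 the control siz1-3 arrays lay above the dehydrated Col-0 arrays, while for AT5G48900 the order was the opposite.

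A pair of members encode inhibitors of the invertase and pectin methylesterase inhibitor family. AT4G25260 had 72.2, 72.9 and 89.1 in dehydrated siz1-3 against 286, 272 and 271 in dehydrated Col-0, and 152, 151 and 169.9 in control siz1-3 against 478, 484 and 500.1 in control Col-0, with little spread between replicates. With the pseudocount added to the signals, its lowering was 3.11-fold after dehydration and 2.90-fold under control conditions. AT1G62770 was dimmer in all groups, at 16.3, 8.85 and 26.3 in dehydrated siz1-3, 47.7, 48.0 and 62.3 in dehydrated Col-0, 43.4, 42.9 and 50.7 in control siz1-3 and 139.5, 126 and 89.8 in control Col-0. Both fell with dehydration, with responses of -0.84 ± 0.08 and -0.94 ± 0.14 (limma adjusted p = 9.77e-07 and 7.2e-05). AT5G11420, which encodes a wall protein with a DUF642 domain, fell more steeply, with 266, 219 and 223 in dehydrated siz1-3 and 729, 526 and 549.9 in dehydrated Col-0, against 1547, 1536 and 1635 in control siz1-3 and 3558, 3145 and 3199.9 in control Col-0 (-2.55 ± 0.10, limma adjusted p = 3.24e-10). AT4G18280, for a glycine-rich wall protein, was the only one of the 9 to rise. Its signal was 756, 730.2 and 662 in dehydrated siz1-3 against 1508, 1462 and 2187 in dehydrated Col-0, and 138, 129 and 154 in control siz1-3 against 311, 314 and 389 in control Col-0, a response of 2.25 ± 0.11 (limma adjusted p = 3.9e-09).

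At the surface, 3 members belong to lipid-linked families. AT1G62510, which encodes a small cysteine-rich protein related to lipid transfer proteins, read 33.2, 31.3 and 28.6 in dehydrated siz1-3 against 145, 125 and 163 in dehydrated Col-0, and 70.9, 71.1 and 59.6 in control siz1-3 against 352, 259 and 196 in control Col-0. AT5G01870, for a lipid transfer protein, was uneven among replicates, with 20.8, 32.3 and 23.3 in dehydrated siz1-3 against 81.3, 147 and 92.4 in dehydrated Col-0, and 67.3, 33.1 and 46.3 in control siz1-3 against 243, 204 and 108 in control Col-0. Its response of -0.65 ± 0.20 passed on the deposited scale (a decrease, limma adjusted p = 0.0155) and not after quantile normalization (0.10), centring on array medians (0.134) or with a floor of 32 (0.0724). AT4G18970, which encodes a lipase-like protein of the GDSL family, fell by 1.84 ± 0.10 (limma adjusted p = 7.59e-09), and AT1G62510 fell by 0.81 ± 0.12 (limma adjusted p = 0.000108). The AT4G18970 signal was 75.5, 58.9 and 80.0 in dehydrated siz1-3 against 198, 174 and 140.2 in dehydrated Col-0, and 286, 285 and 281 in control siz1-3 against 743, 645 and 632 in control Col-0.

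Transporters and vacuolar proteins supplied 8 members, of which 4 rose with dehydration, 3 fell and 1 did not pass, where 17.3% of all probe sets rose and 34.3% fell. With quantile normalization 4 rose and 1 fell, and with arrays centred on their medians 5 rose and 1 fell. Both named nitrate transporter genes of the NPF6 subfamily were among those that rose. AT3G21670 (NPF6.4) read 363, 373 and 338 in dehydrated siz1-3 against 1643, 1699 and 1675 in dehydrated Col-0, and 37.1, 62.4 and 49.2 in control siz1-3 against 206, 128 and 173 in control Col-0. The replicates were tight after dehydration, and the difference of -2.18 there was larger than the -1.49 under control conditions. AT2G26690 (NPF6.2) had 669, 704 and 705 in dehydrated siz1-3 against 1848, 1767 and 1603 in dehydrated Col-0, and 224, 264 and 261 in control siz1-3 against 614, 645 and 619.8 in control Col-0, so that its dehydrated siz1-3 arrays reached just past the control Col-0 arrays. Their responses were 2.87 ± 0.12 and 1.43 ± 0.08 (limma adjusted p = 7.29e-10 and 6.35e-09). AT1G62660, which encodes a vacuolar invertase that splits sucrose, followed the same pattern with 765, 747 and 812 in dehydrated siz1-3, 2239, 2615 and 2518 in dehydrated Col-0, 110.2, 190.3 and 159.8 in control siz1-3 and 362, 514 and 469.8 in control Col-0 (2.34 ± 0.13, limma adjusted p = 7.31e-09). So did AT5G44050, for an efflux carrier of the MATE family, at 213, 176 and 191 in dehydrated siz1-3, 666, 714 and 594 in dehydrated Col-0, 23.6, 24.6 and 35.7 in control siz1-3 and 70.8, 64.3 and 98.9 in control Col-0 (2.56 ± 0.11, limma adjusted p = 1.13e-09).

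Of the other 4 of this group, 3 fell and 1 did not pass. AT1G62480 and AT1G12080 encode proteins related to a vacuolar calcium-binding protein. AT1G62480 read 875, 862 and 930.1 in dehydrated siz1-3 against 2217, 2089.7 and 2072 in dehydrated Col-0, and 852, 867 and 983 in control siz1-3 against 1887, 2221 and 2046 in control Col-0. Its response to dehydration was 0.02 ± 0.08 (limma adjusted p = 0.866; called up after centring on array medians, 0.0052). AT1G12080 read 47.9, 47.2 and 36.8 in dehydrated siz1-3 against 113, 107 and 139 in dehydrated Col-0, and 31.2, 73.5 and 43.8 in control siz1-3 against 216, 215 and 220.5 in control Col-0. Its call downward (-0.44 ± 0.14, limma adjusted p = 0.018) ended after quantile normalization (0.286), after centring on array medians (0.359), with a pseudocount of 1 (0.0569) and with a floor of 32 (0.0672). AT2G16990, for a carrier of the major facilitator superfamily, fell by 0.55 ± 0.10 (limma adjusted p = 0.000476), with group means of 31.9 ± 5.62 in dehydrated siz1-3, 124 ± 24.1 in dehydrated Col-0, 55.7 ± 5.50 in control siz1-3 and 182 ± 14.6 in control Col-0 (SD, n = 3). AT5G24580, for a heavy-metal-associated domain protein, fell by 0.45 ± 0.13 (limma adjusted p = 0.0117; 0.188 after quantile normalization and 0.301 after centring on array medians), with means of 23.1 ± 7.19 in dehydrated siz1-3, 61.7 ± 4.64 in dehydrated Col-0, 29.9 ± 8.65 in control siz1-3 and 109 ± 24.8 in control Col-0 (SD, n = 3).

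Transcription was represented by 3 members, 2 of them AP2/ERF factors of the DREB subfamily, the family that binds dehydration-responsive promoter elements. AT2G22200 read 146, 148 and 177 in dehydrated siz1-3 against 464, 407 and 386 in dehydrated Col-0, and 15.2, 3.11 and 19.3 in control siz1-3 against 62.7, 66.2 and 41.5 in control Col-0. AT1G01250 read 40.1, 41.0 and 28.7 in dehydrated siz1-3 against 119, 98.0 and 138 in dehydrated Col-0, and 7.86, 5.82 and 15.3 in control siz1-3 against 57.0, 50.1 and 50.6 in control Col-0. Both rose, AT2G22200 by 2.62 ± 0.15 and AT1G01250 by 1.00 ± 0.11 (limma adjusted p = 1.33e-08 and 8.3e-06). The dehydrated siz1-3 arrays of AT2G22200 lay above all its control Col-0 arrays, whereas those of AT1G01250 lay below. The third, AT5G13240, encodes a protein related to MAF1, a repressor of RNA polymerase III known from yeast. It had means of 272 ± 10.8 in dehydrated siz1-3, 570.4 ± 81.8 in dehydrated Col-0, 229 ± 44.1 in control siz1-3 and 524 ± 73.0 in control Col-0 (SD, n = 3), with no call for dehydration (0.18 ± 0.11, limma adjusted p = 0.187; 0.00334 and upward after centring on array medians).

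LHCB4.2 encodes a form of CP29, an antenna protein that links light-harvesting complexes to photosystem II. Its signal was 819, 756 and 790.5 in dehydrated siz1-3 against 2033, 1674 and 2212 in dehydrated Col-0, and 3995, 4471 and 5050.0 in control siz1-3 against 9364, 9026 and 9259 in control Col-0. LHCB4.2 fell with dehydration by -2.35 ± 0.09 (limma adjusted p = 3.66e-10), about as far in siz1-3 (-2.48) as in Col-0 (-2.22), as the rule requires. MSRB6, a methionine sulfoxide reductase gene, whose enzyme family repairs oxidised methionine, was near the limit of 0.75 between its differences. It read 537, 527 and 499 in dehydrated siz1-3 against 1759, 1890.0 and 2016 in dehydrated Col-0, and 626, 723 and 750.2 in control siz1-3 against 1362, 1588 and 1616 in control Col-0. Its dehydrated arrays lay below the control arrays in siz1-3 and above them in Col-0, and the response averaged over both was -0.05 ± 0.08 (limma adjusted p = 0.656; 0.23 and adjusted p = 0.0318 after centring on array medians). AT1G54050, for a small heat-shock protein of the HSP20 family, rose by 0.99 ± 0.18 (limma adjusted p = 0.000388). It read 223, 215 and 210.4 in dehydrated siz1-3 against 678, 656 and 408 in dehydrated Col-0, and 67.5, 159.8 and 86.6 in control siz1-3 against 247, 316 and 289 in control Col-0.

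The membrane and cytoskeleton group has 6 members, and all fell with dehydration under each of the 3 scalings, as did 34.3% of all probe sets and 57.3% of the members on the deposited scale. Remorins are plant proteins of plasma membrane nanodomains, and both AT3G61260 and AT5G23750 encode one. AT3G61260 read 522, 512 and 537 in dehydrated siz1-3 against 1315, 1137 and 1406 in dehydrated Col-0, and 1126, 1391 and 1171 in control siz1-3 against 3267, 2709 and 3313 in control Col-0, so that unstressed mutant and dehydrated wild type overlapped. AT5G23750 was dimmer, with 29.3, 22.9 and 32.2 in dehydrated siz1-3, 67.5, 96.4 and 74.7 in dehydrated Col-0, 39.4, 44.2 and 74.9 in control siz1-3 and 143, 127 and 147 in control Col-0. Both fell, with responses of -1.23 ± 0.09 and -0.66 ± 0.13 (limma adjusted p = 1.44e-07 and 0.000805). TUB6, which encodes a beta-tubulin, a building block of microtubules, had 367, 379.6 and 285 in dehydrated siz1-3 against 832, 641 and 939.6 in dehydrated Col-0, and 679, 676 and 739.6 in control siz1-3 against 1455, 1474 and 1566 in control Col-0, and fell by 0.95 ± 0.11 (limma adjusted p = 6.67e-06). AT5G48460, for an actin-bundling fimbrin, fell by 1.82 ± 0.14 (limma adjusted p = 1.54e-07), with 24.4, 12.3 and 10.7 in dehydrated siz1-3, 42.3, 53.5 and 72.7 in dehydrated Col-0, 104, 113 and 76.7 in control siz1-3 and 232, 236 and 225 in control Col-0. TET7, a tetraspanin gene, and PRA1.F1, for a prenylated RAB acceptor of membrane traffic, fell with responses of -0.77 ± 0.11 and -0.62 ± 0.11 (limma adjusted p = 5.86e-05 and 0.00029). TET7 read 141, 101 and 103 in dehydrated siz1-3, 305, 280.4 and 266 in dehydrated Col-0, 195, 265 and 187 in control siz1-3 and 527, 447 and 469 in control Col-0. PRA1.F1 read 47.8, 39.7 and 47.4 in dehydrated siz1-3, 102, 120.0 and 146 in dehydrated Col-0, 63.8, 68.7 and 89.5 in control siz1-3 and 189.7, 231 and 194 in control Col-0. In both genes every siz1-3 array lay below every Col-0 array of the same condition.

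Among 7 members that encode hydrolases or other proteins of a known fold, 4 fell with dehydration and 3 did not pass, a share close to that of the members as a whole (57.3%, against 34.3% of all probe sets). AT5G44020, for an acid phosphatase of the HAD superfamily, showed the largest decrease among the named members. It read 123, 127 and 126 in dehydrated siz1-3 against 316, 318 and 358 in dehydrated Col-0, and 1232, 1274 and 1409.8 in control siz1-3 against 3045, 3025 and 2753 in control Col-0, a response of -3.16 ± 0.07 (limma adjusted p = 1.54e-11). The spread among its replicates was small beside both differences. AT4G38690, for a phospholipase C-like phosphodiesterase, read 22.6, 25.7 and 6.56 in dehydrated siz1-3 against 116, 103 and 114 in dehydrated Col-0, and 174, 227 and 262 in control siz1-3 against 728, 695 and 793 in control Col-0 (-2.70 ± 0.15, limma adjusted p = 9.07e-09). In AT5G22580, which encodes a stress-responsive protein with an A/B barrel domain, the lowering was 5.27-fold and 4.38-fold with the pseudocount added to the signals. Its arrays read 138, 135 and 95.8 in dehydrated siz1-3 against 678, 798 and 658 in dehydrated Col-0, and 615, 607 and 554 in control siz1-3 against 2856, 2443 and 2655 in control Col-0, so that control siz1-3 lay below dehydrated Col-0 although the gene fell by 2.01 ± 0.10 (limma adjusted p = 3.7e-09). AT1G25230, for a purple acid phosphatase, fell by 1.84 ± 0.11 (limma adjusted p = 2.11e-08), with 93.3, 100.2 and 118 in dehydrated siz1-3, 415, 356 and 417 in dehydrated Col-0, 398, 494 and 615 in control siz1-3 and 1311, 1254 and 1098 in control Col-0.

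The 3 that did not pass had responses between -0.06 and 0.07 as the average of both genotypes. AT5G22460, for an alpha/beta-hydrolase, read 19.4, 24.7 and 25.4 in dehydrated siz1-3 against 145, 147 and 119.7 in dehydrated Col-0, and 12.1, 36.6 and 17.7 in control siz1-3 against 113, 169 and 120.1 in control Col-0, with a response of 0.07 ± 0.15 (limma adjusted p = 0.756). AT2G39850, for a subtilisin-like protease, had means of 113 ± 13.9 in dehydrated siz1-3, 364 ± 9.58 in dehydrated Col-0, 122 ± 17.3 in control siz1-3 and 342 ± 42.6 in control Col-0 (SD, n = 3) and a response of -0.0021 ± 0.09 (limma adjusted p = 0.989; 0.28 and 0.0252 after centring on array medians). AT4G33490, for an aspartyl protease, had means of 139 ± 3.88 in dehydrated siz1-3, 442 ± 31.5 in dehydrated Col-0, 176 ± 24.4 in control siz1-3 and 385 ± 18.2 in control Col-0 (SD, n = 3) and a response of -0.06 ± 0.08 (limma adjusted p = 0.618; 0.22 and 0.0344 after that subtraction). That average joins -0.30 in siz1-3 and 0.19 in Col-0. Its dehydrated arrays all lay below the control arrays in siz1-3 and all above them in Col-0.

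For 7 named members no role is given. AT2G42760 rose by 1.2 ± 0.15 (limma adjusted p = 1.93e-05), and AT5G57785, AT5G35970 and AT5G49170 fell with responses of -2.04 ± 0.11, -1.40 ± 0.11 and -1.39 ± 0.16 (limma adjusted p = 7.93e-09, 1.6e-07 and 6.61e-06). AT2G42760 read 311, 298 and 248 in dehydrated siz1-3, 794, 767 and 1097 in dehydrated Col-0, 115, 168 and 145 in control siz1-3 and 336, 215 and 388 in control Col-0. AT5G57785 read 26.3, 38.8 and 39.5 in dehydrated siz1-3, 82.0, 85.6 and 115 in dehydrated Col-0, 174, 185 and 223 in control siz1-3 and 482, 413 and 406 in control Col-0. AT5G49170 read 10.5, 21.0 and 7.41 in dehydrated siz1-3, 45.0, 45.4 and 50.9 in dehydrated Col-0, 57.1, 69.3 and 31.5 in control siz1-3 and 143, 201 and 168 in control Col-0. In all 3 the genotypes did not overlap within a condition, as for nearly every member. AT4G09890 was called down (-0.30 ± 0.10, adjusted p = 0.0293), a call that ended after quantile normalization (0.529), centring on array medians (0.893) and when 1 of 6 arrays was dropped (0.0506 to 0.0755), namely replicates 1 and 2 of the Col-0 and siz1-3 controls and replicate 3 of either dehydrated group. AT5G55620 and AT5G01075 did not pass, with responses of -0.21 ± 0.15 and -0.11 ± 0.15 (limma adjusted p = 0.265 and 0.581). Their mean genotype differences over both conditions ran from -1.31 for AT5G49170 to -1.11 for AT5G57785.

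The 68 members without a gene name split as follows: 17 rose with dehydration, 41 fell and 10 did not pass, against 17.3% and 34.3% of all probe sets that rose and fell. Their mean genotype differences ran from -2.29 to -1.04 and their responses from -3.35 to 2.63. Probe set 261226_at was close to 0 in the dehydrated mutant, at 2.01, 4.29 and 2.71, against 69.2, 61.1 and 68.0 in dehydrated Col-0, and read 158, 151 and 143 in control siz1-3 against 1022, 876 and 846 in control Col-0 (a response of -3.32 ± 0.08, limma adjusted p = 1.54e-11). Probe set 259609_at rose by 1.76 ± 0.17 (limma adjusted p = 2.2e-06), with 405, 509 and 574 in dehydrated siz1-3 against 2641, 2679 and 2691 in dehydrated Col-0, and 134, 189.8 and 187 in control siz1-3 against 430.0, 985 and 582 in control Col-0.

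**Figure D4:**
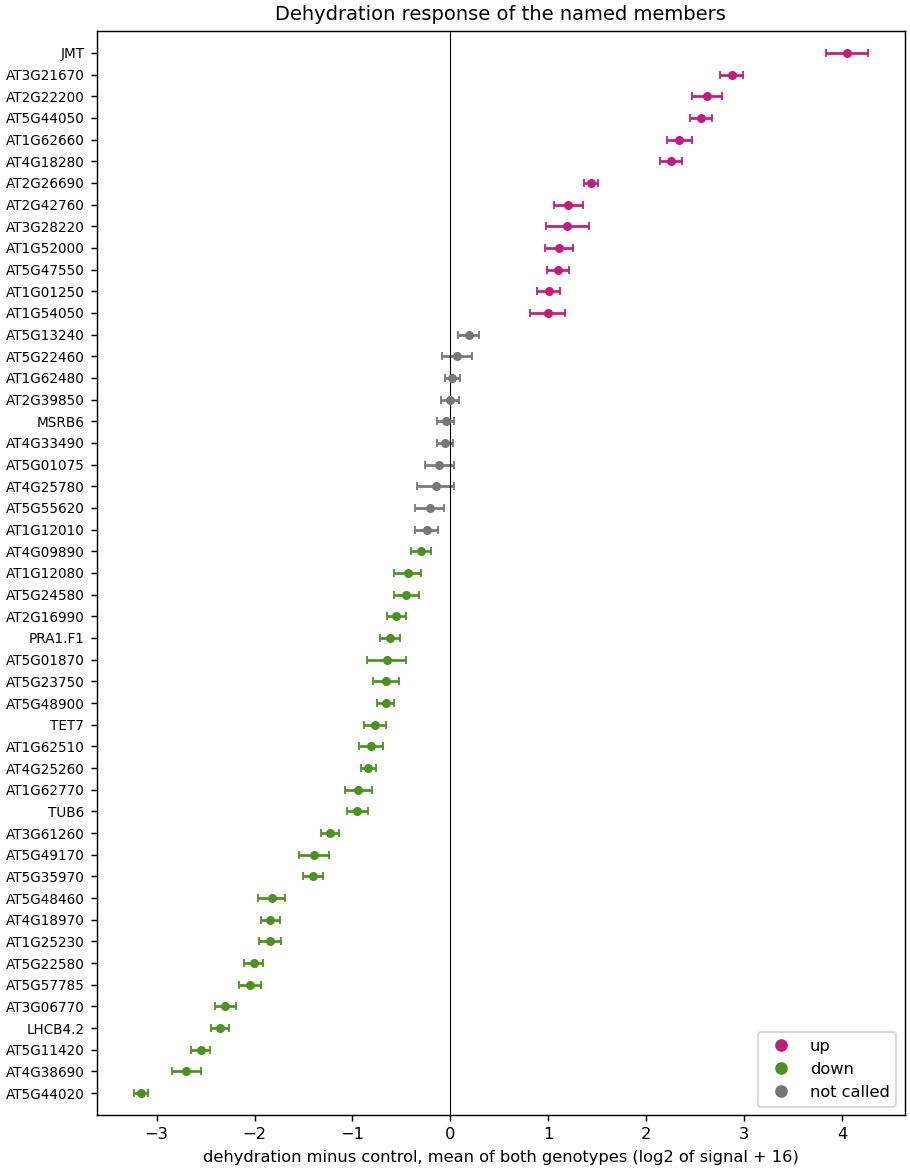
Dehydration minus control, averaged over both genotypes, is plotted on the x axis in log2(signal + 16) with its standard error for the 49 named members, sorted by size and coloured by the limma call at an adjusted p of 0.05. The 13 called up run from AT1G54050 at 0.99 to JMT at 4.04, the 26 called down from AT4G09890 at -0.30 to AT5G44020 at -3.16, and the 10 not called lie between -0.24 and 0.18.

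Relatives of the members were read beside them, as families formed from gene symbols after the members were known. In the CP29 family the 3 genes went different ways by genotype. LHCB4.3 was higher in siz1-3, by 1.29 ± 0.13 after dehydration and 1.58 ± 0.13 under control conditions (limma adjusted p = 1.04e-05 and 2.84e-06), with means of 308 and 458 in dehydrated and control siz1-3 and 116 and 142 in dehydrated and control Col-0. LHCB4.1 had smaller differences than LHCB4.2, -0.39 ± 0.11 after dehydration and -0.34 ± 0.11 under control conditions (limma adjusted p = 0.0157 and 0.0477). Neither was called after quantile normalization (0.211 and 0.431), nor was the first after centring on array medians (0.0725). Beside the member TUB6, 4 beta-tubulin genes were measured, of which 3 were called lower in siz1-3 after dehydration (19.1% of all probe sets were) and 2 under control conditions (8.49%), and 0 higher. TUB7 lost its limma call after dehydration when arrays were centred on their medians (-0.32, adjusted p = 0.0953), which left 2. TUB1 missed the rule narrowly with -0.91 ± 0.12 after dehydration and -1.23 ± 0.12 under control conditions, TUB5 had -0.94 ± 0.13 and -0.70 ± 0.13, and TUB9 had -0.15 ± 0.15 and -0.40 ± 0.15, without a call.

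The remaining families were mixed. Beside the 2 NPF6 members, 9 NPF transporter genes were measured and 0 of them were called lower in siz1-3 in either condition by limma. Of these 9, NPF4.1, NPF4.2 and NPF4.5 averaged 13.1 to 25.8 in every group, which leaves little room for a lower call. NPF4.4 averaged 14.7 in dehydrated siz1-3 and 14.3 in dehydrated Col-0. GTR1 (NPF2.10), a glucosinolate transporter gene, read 2765 in dehydrated siz1-3 and 2773 in dehydrated Col-0. AT1G68570 (NPF3.1) was higher in siz1-3 under control conditions by 1.41 ± 0.14 (limma adjusted p = 1.87e-05), and after dehydration it was called higher only when arrays were centred on their medians (0.44, adjusted p = 0.0357). Among 4 MSRB genes, MSRB9 was higher in siz1-3 by 1.35 ± 0.24 after dehydration and 2.47 ± 0.24 under control conditions (limma adjusted p = 0.000971 and 1.32e-05), opposite to MSRB6, and MSRB5 was lower after dehydration by -1.15 ± 0.24 (limma adjusted p = 0.00269) and not under control conditions (0.25 ± 0.24, adjusted p = 0.55). In the tetraspanin family TET7 was the 1 member of 15 measured genes. Of the other 14, limma called 1 lower and 1 higher in siz1-3 after dehydration, and 3 lower and 2 higher under control conditions. Among these 14, TET4 and TET11 to TET16 averaged 1.95 to 29.4 in every group, which leaves little room for a lower call. TET12, called lower under control conditions, averaged 2.00 in control siz1-3 and 17.5 in control Col-0. Across all probe sets 19.1% and 8.49% were called lower. TET8 was higher in siz1-3 by 1.32 ± 0.17 after dehydration and 0.60 ± 0.17 under control conditions (limma adjusted p = 0.000103 and 0.0309). Of 10 PRA1 genes beside PRA1.F1, 1 was called lower after dehydration and 2 under control conditions, and 2 were called higher in each condition. Quantile normalization made that 0 lower and 4 higher after dehydration, and 3 lower and 2 higher under control conditions. With arrays centred on their medians it was 1 lower and 4 higher after dehydration, and 3 lower and 2 higher under control conditions. PRA1.G1, called higher after dehydration under both of these scalings, averaged 1.80 to 8.04 in the groups on the deposited scale. Probe sets of such related genes may share target sequence, and cross-hybridisation was not tested.

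**Figure D5:**
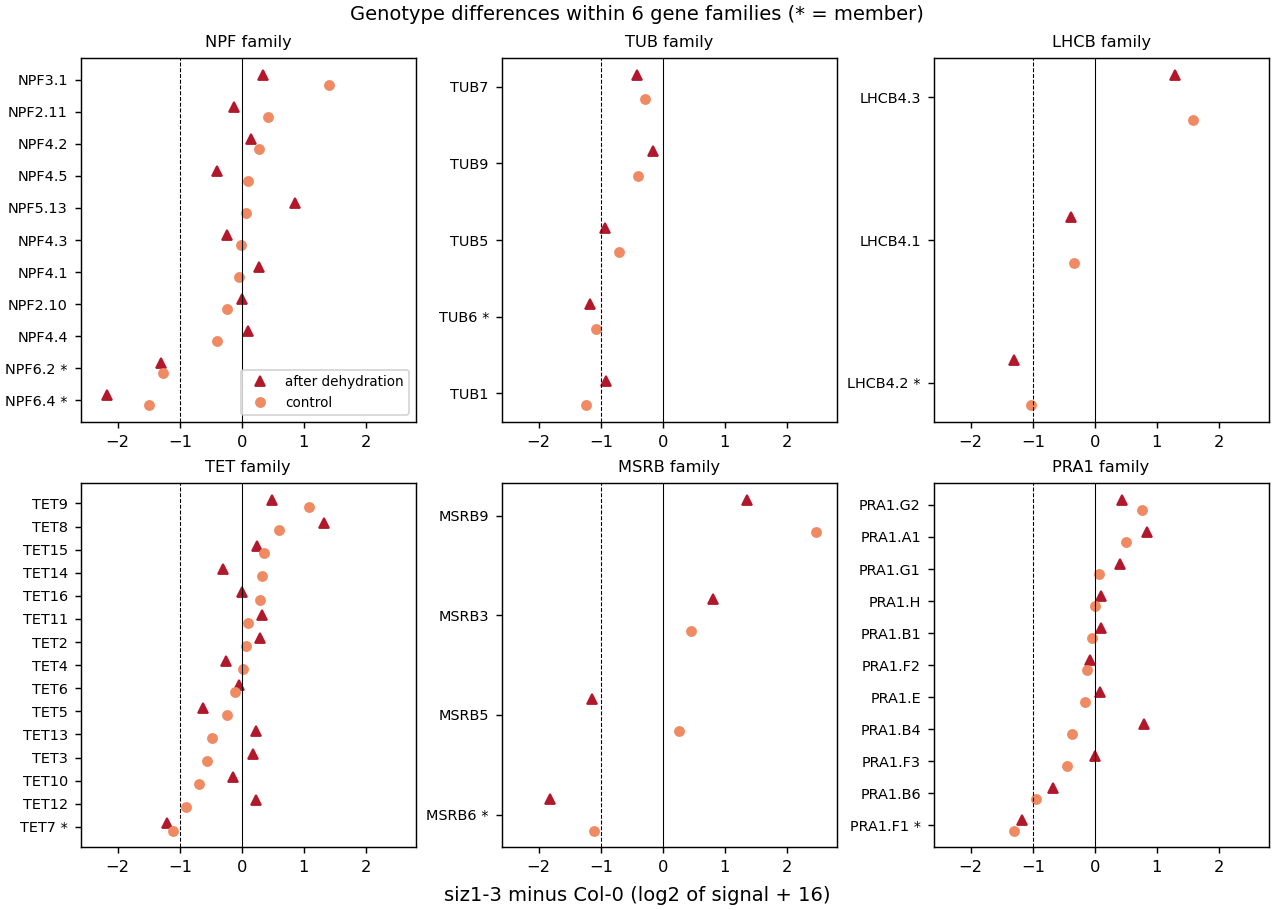
Siz1-3 minus Col-0 differences in log2(signal + 16), as means of 3 arrays a group, are shown on the x axis after dehydration (triangles) and under control conditions (circles) for the measured genes of 6 families, with members marked by an asterisk and the rule's limit of -1 as a dashed line. LHCB4.3 and MSRB9 lie right of 0 while LHCB4.2 and MSRB6 lie left of -1, and all 5 TUB genes lie left of 0.

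Of 252 genes in 21 lists for hormones, stress, growth, photosynthesis and tissues, only 40 could be read from a probe set annotated to that 1 gene, and 1 of these 40, JMT, is a member. In the jasmonate list 2 of 18 genes were measured, and the other, PDF1.2, a defensin gene, had differences of -0.43 after dehydration and -0.60 under control conditions (limma adjusted p = 0.665 and 0.602). The wall-loosening list of expansins and xyloglucan endotransglucosylases had 9 of 23 genes measured and no member: 2 were called lower and 2 higher in siz1-3 after dehydration, and 5 lower and 0 higher under control conditions. These 5 include EXLA1 (-2.17), which was to be left out of the members by name. EXLA3 and XTH33 were dim, with group means of 4.26 to 34.8. The median genotype difference of the list was -0.06 after dehydration (0.04 after either of the other scalings) and -0.89 under control conditions, beside -0.10 and -0.03 over all probe sets. Counts called lower, in this list and the later ones, are read beside 19.1% of all probe sets after dehydration and 8.49% under control conditions. The share of all probe sets called higher is not given here. All 3 measured photosynthesis genes of 12, LHCB4.1, RCA and PRK, were called lower in siz1-3 after dehydration and 1 under control conditions, with medians of -0.45 and -0.34. After quantile normalization these counts were 2 and 0, with medians of -0.34 and -0.14, and after centring on array medians 2 and 1. In the cold and CBF list 4 of 16 genes were measured, and 2 were called lower after dehydration and 4 under control conditions. The 2 called after dehydration, COR15A (-2.18) and COR15B (-2.26), were both to be left out of the members by name. COR47 and LTI30 had differences of -0.17 and -0.04 after dehydration, without a call. Under control conditions their differences were -1.86 and -1.31 (limma adjusted p = 7.63e-07 and 1.04e-05).

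Named members lay on all 5 nuclear chromosomes, with 17 of the 48 that match the reference gene table on chromosome 5 (35.4%, against 22.5% of nuclear 1-gene probe sets) and 5 on chromosome 3 (10.4%, against 20.5%). In the gene order of that table, 7 pairs of successive named members had at most 40 protein-coding genes between them. How many such pairs 48 genes placed at random would give was not tested. AT1G62480 and AT1G62510 had 2 genes between them, both measured, with differences of -0.90 and -0.02 after dehydration and from 0.18 to 0.67 under control conditions. AT1G62660 and AT1G62770 follow on the same chromosome after 13 and 10 further genes, which makes 4 members in that stretch. AT5G44020, the phosphatase gene, and AT5G44050, the MATE carrier gene, also had 2 genes between them, of which 0 were measured. The phosphatase gene and the carrier gene responded to dehydration in opposite directions. Between AT5G22460 and AT5G22580 lie 14 genes, and the 4 of them that were measured had differences from -0.15 to 2.67 after dehydration and from 0.16 to 4.03 under control conditions, none as low as the members on either side.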

How the data were processed

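Total RNA from 12 Arabidopsis samples was hybridised to ATH1 GeneChip arrays, 1 array a sample, per the labels' protocols. The deposited values are probe set intensities on a linear scale, with the same trimmed mean on every array. The summary method is not stated. Gene names came from the platform annotation, with 13513 of 22746 probe sets paired with 1 gene, and from the TAIR10.1 RefSeq gene table.

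Levels were log2(signal + 16), with 64 control probe sets left out. All probe sets were fitted with limma 3.58.1 (R 4.3.3), 4 group means and 8 residual degrees of freedom, with Benjamini-Hochberg adjustment, and the fit was tested on simulated data. No detection calls or background estimates were used, so how far dim signals stand above background is unknown, and the number of arrays limits the precision. The members and gene lists were chosen with earlier results of these data known. Members paired with 1 gene were named. Values in every array went to the 12 with the largest lowering, the 10 with the largest response in each direction, listed genes, families and neighbours, and to some others.

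The alternatives were quantile normalization, subtraction of array medians, pseudocounts of 1 and 64, a floor of 32, the brightest 60% of probe sets, a replicate block, a trended prior, and leaving out each array.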

Additional observations from a re-analysis of the deposited data

How the results depend on the processing

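Membership rested on the pseudocount: the rule was met by 304 probe sets with a pseudocount of 1, of which 105 are among the 117, and by 52 with a pseudocount of 64, of which 50 are. It was met by 131 with a floor of 32 (97 shared), by 110 after subtraction of array medians (100 shared), by 115 after quantile normalization (101 shared), by 112 among the brightest 60% of probe sets (all shared), and by 114 to 126 when 1 array was left out (101 to 113 shared). Counts for dehydration ran from 29 to 42 rising and from 57 to 69 falling over all alternatives, and from 30 to 31 and 65 to 69 without 1 array. With the replicate block they were 30 and 67. The correlation of deviations was -0.0899 to 0.223 over 18 same-numbered pairs (median 0.0136), over 0.1 in 1. It was -0.171 to 0.184 over 36 pairs of other numbers (median -0.0196). Of the 12 arrays 4 correlated best with their own number. Whether same-numbered samples were handled together cannot be settled from such values. Of the 49 named members 37 kept their call under all 20 alternatives, and AT1G01250 under the 19 that could be run for it, since it is not among the brightest 60%. Subtraction of array medians turned AT2G39850 (0.28), AT4G33490 (0.22), MSRB6 (0.23), AT5G13240 (0.46) and AT1G62480 (0.30) to called increases. With it 18 named members rose and 22 fell, in place of 13 and 26. That setting moved the median response of all probe sets by 0.28. The cause was not tested. The pseudocount makes the log2 differences of every member understate the ratio of signals, the more so where siz1-3 signals are dim. For 4 members both siz1-3 groups averaged below the pseudocount.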
